A study of Homo sapiens with 30 samples.

Results

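In T47D breast cancer cells, 33 genes had lower RNA levels after siRNA against the NELF-A subunit of the negative elongation factor than after control siRNA, while siRNA against NELF-B, NELF-C or NELF-E left their mean levels less far below control, near it or above it. They were chosen by their measured values. Each is a gene-level cluster of the exon array with 1 gene symbol and a siControl mean of at least 4.5 (log2), a siNELF-A mean at least 0.8 below siControl, and siNELF-B, siNELF-C and siNELF-E means each less than 0.4 below it. Of 22011 clusters, 14432 carried 1 symbol, 8179 of these reached the minimum, and 702 of those met the siNELF-A fall. In 668 of the 702, at least 1 other knockdown lay 0.4 or more below siControl too, and 1 further gene, STAT3, met the limits but was left out of the set by name along with 4 others. Every comparison with siControl or with siNELF-A took part in this choice, so those differences are given as a description without a test, and a fall of a member means only that its siNELF-A mean was below its siControl mean. For these genes, only the differences among siNELF-B, siNELF-C and siNELF-E were tested. The choice did not compare these groups with each other, but it bounded each of their means from below. The tested values are therefore limited by the choice as well.

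NELF is a complex of several subunits that binds RNA polymerase II shortly after initiation and holds it in a paused state near the promoter. Release from the pause lets the polymerase enter productive elongation, and the complex can both restrain and sustain the output of a gene. NELF-A carries regions that contact the polymerase, NELF-E carries an RNA-binding domain, and NELF-B and NELF-C join them in the complex.

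T47D is an established human luminal, oestrogen-receptor-positive breast cancer line. Cells were transfected at 10 nM with a control siRNA against luciferase (siControl) or with siRNA against 1 of the 4 subunits (siNELF-A, siNELF-B, siNELF-C, siNELF-E), received fresh medium at 48 hours and were harvested after a further 48 hours. The 5 groups held 3 arrays each, 15 in all, and the series describes the 3 as technical repeats, so p-values here measure the spread between repeats of a condition and not between cultures. All groups shared the cell line, the medium with serum and the transfection, each subunit was targeted under a single siRNA label, and no second siRNA against NELF-A was among the samples. The RNA came from whole dishes, in which fewer cells of a type and less RNA per cell cannot be told apart.

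NELFA itself was measured by 15 exon-level probe sets, whose median was 6.24, 6.14 and 6.34 on the siControl arrays and 5.39, 5.58 and 5.92 on the siNELF-A arrays. The siNELF-A values lay below all controls, by 0.61 on average. On the same siNELF-A arrays NELFCD read 8.86, 8.80 and 8.23, which was 0.63 below its siControl mean, and NELFE read 7.98, 8.20 and 7.42, which was 0.61 above. The NELFA difference was thus no larger than those of these other subunit genes. NELFCD, the gene of the NELF-C subunit, stood at 5.69, 5.14 and 5.82 on the siNELF-C arrays against 9.31, 9.20 and 9.27 in siControl. NELFE stood at 4.66, 4.70 and 4.60 on the siNELF-E arrays against 7.29, 7.22 and 7.27. No value under the symbol of the NELF-B gene was analysed here. The luminal marker list had a median siControl level of 9.15 over 14 measured genes, while the mesenchymal, leukocyte and endothelial lists had medians of 2.92, 2.40 and 2.49 over 10, 6 and 6 genes. The basal epithelial list lay between, with a median of 5.96 over only 2 measured genes.

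The siNELF-B arrays disagreed with each other, and the set rests on their mean. Over the 33 genes, the median difference from siControl was -0.03 on siNELF-B replicate 1, 0.46 on replicate 2 and -0.66 on replicate 3. On replicate 3, 32 of the 33 genes lay below all 3 control arrays and 29 were at least 0.4 below the control mean. In 6 genes (SLC25A16, ZNF532, MYOF, CLTC, FEZ1 and LAMB1) replicate 3 lay below the siNELF-A mean, and in 2 of these, ZNF532 and CLTC, below every siNELF-A array. On replicate 2, by contrast, 28 of the 33 lay above all controls and 0 below. The siNELF-A arrays stood at -0.90, -0.97 and -1.23. The siNELF-B arrays also stood apart over the 8179 genes at or above the minimum, with median differences of -0.46, -0.01 and -0.97. Without siNELF-B replicate 2 the limits admitted 16 genes, all among the 33, and without replicate 3 they admitted 63, which included all 33. Without both of these arrays they admitted 46 genes, 32 of them among the 33. EEF2K was the one lost. The contrast of siNELF-A with the other knockdowns thus holds for group means, and siNELF-B replicate 3 showed most of these genes low as well. The set also depends on scaling: the same limits admitted 77 genes after quantile normalization (19 among the 33), 57 after centring arrays on medians (22 among the 33), 82 after centring on 75th percentiles (18 among the 33) and 38 from medians of exon-level probe sets (16 among the 33). KCNMA1, EPAS1, PTPRF, NAALADL2, PREX1, LMO4, ANKRD22 and VDR met the limits in all 20 settings tried.

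**Figure D1:**
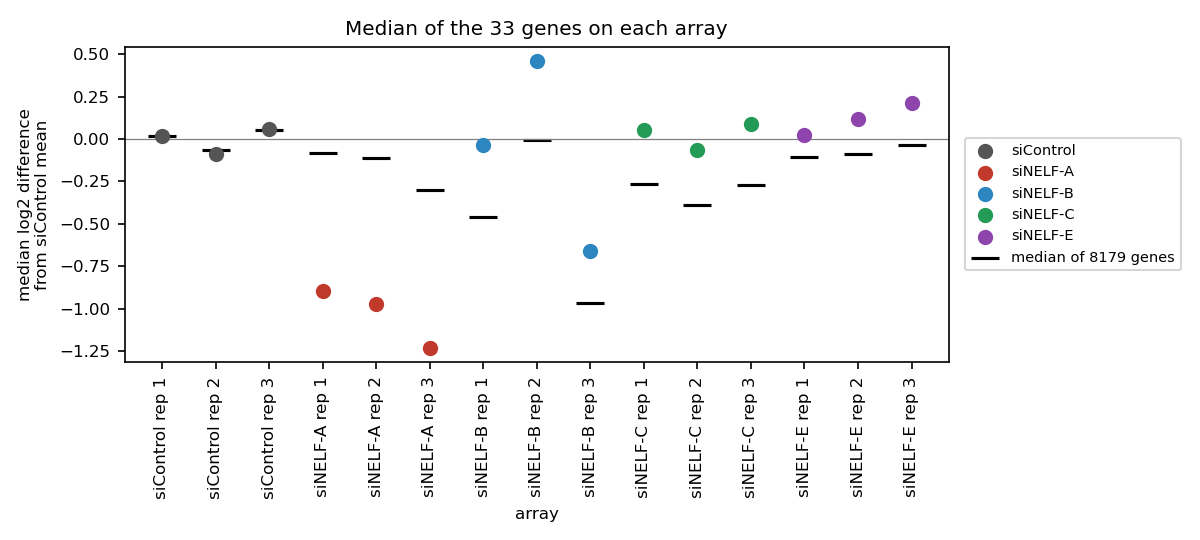
Median over the 33 genes of the log2 difference from the siControl mean (y axis) on each of the 15 arrays (x axis); points are coloured by siRNA group and black bars give the median of the 8179 genes at or above the minimum. The siNELF-A points lie at -0.90, -0.97 and -1.23, and the siNELF-B points spread from 0.46 to -0.66.

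Levels over all genes shifted between groups too. For the knockdowns of A, B, C and E in turn, the median of the 8179 genes was -0.16, -0.48, -0.30 and -0.07, and the median of the 33 genes was -1.04, -0.14, -0.01 and 0.15. Since the 33 were chosen on these contrasts, the second set of medians only describes the choice. The 702 genes that met the siNELF-A fall had medians of -1.04, -0.79, -0.81 and -0.60 in the same order, so most genes that were low after siNELF-A were low after the other siRNAs as well. PTK7 at -0.81, LAMB1 at -0.82 and FBXO32 at -0.82 were just inside the limit on the siNELF-A fall, and USP3, ARFGEF3 and SHANK2, all at -0.79, were just outside. On the other limit, ECE1 at -0.39, MYOF at -0.39 and LAMB1 at -0.37 were just inside, and CAPN1 at -0.40, GSR at -0.41 and VEZF1 at -0.41 were just outside. The dimmest members were DUSP4, FEZ1 and SRGAP3 with siControl means of 4.95, 5.01 and 5.17, and the nearest clusters under the minimum were LOC100132356 at 4.38, NREP at 4.08 and LCE4A at 3.17.

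**Figure D2:**
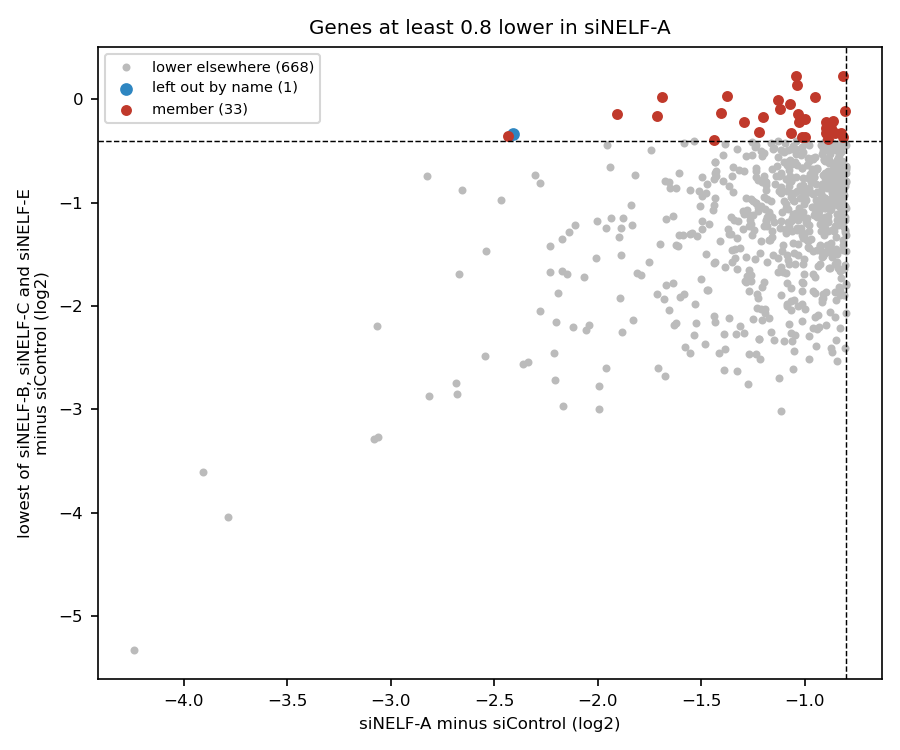
Difference of the siNELF-A mean from the siControl mean (x axis, log2) against the lowest of the siNELF-B, siNELF-C and siNELF-E differences (y axis, log2) for the 702 genes that were at least 0.8 lower in siNELF-A. Red points are the 33 members, above the dashed line at -0.4, grey points the 668 genes that were also lower elsewhere, and the blue point the 1 gene left out by name.

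Promoter sequences were available from RefSeq (GRCh38.p14) for 27 of the 33 genes, as the 250 bases before the annotated start. Those of the 4 genes with the largest siNELF-A fall that had one are shown because these genes carry the extreme of the pattern. They read 5′ to 3′ on the strand of the gene, in lower case, with matches to the searched motifs in capitals. GPC6 lies at chr13:93226557-93226806 on the plus strand, TNFSF10 at chr3:172523431-172523680 on the minus strand, KCNMA1 at chr10:77637809-77638058 on the minus strand and EPAS1 at chr2:46297157-46297406 on the plus strand.
GPC6: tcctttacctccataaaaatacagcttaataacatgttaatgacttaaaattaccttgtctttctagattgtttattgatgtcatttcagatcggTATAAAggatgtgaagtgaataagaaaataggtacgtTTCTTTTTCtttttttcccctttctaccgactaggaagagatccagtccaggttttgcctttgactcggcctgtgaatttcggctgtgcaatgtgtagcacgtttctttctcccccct
TNFSF10: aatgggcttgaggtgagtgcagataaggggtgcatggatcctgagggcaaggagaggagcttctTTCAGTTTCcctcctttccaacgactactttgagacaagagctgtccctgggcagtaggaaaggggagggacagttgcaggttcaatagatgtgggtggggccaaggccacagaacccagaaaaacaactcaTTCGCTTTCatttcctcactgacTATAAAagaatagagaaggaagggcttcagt
KCNMA1: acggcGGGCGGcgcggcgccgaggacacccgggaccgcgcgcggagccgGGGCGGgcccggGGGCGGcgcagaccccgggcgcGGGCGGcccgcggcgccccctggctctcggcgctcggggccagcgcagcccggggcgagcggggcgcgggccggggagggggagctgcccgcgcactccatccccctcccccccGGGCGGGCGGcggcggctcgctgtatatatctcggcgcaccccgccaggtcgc
EPAS1: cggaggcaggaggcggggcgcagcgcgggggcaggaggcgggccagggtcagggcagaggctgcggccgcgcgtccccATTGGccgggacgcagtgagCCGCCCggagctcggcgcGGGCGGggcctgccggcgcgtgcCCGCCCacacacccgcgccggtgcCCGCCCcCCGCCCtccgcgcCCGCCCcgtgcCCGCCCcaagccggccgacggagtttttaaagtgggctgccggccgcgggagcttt

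The motifs searched on both strands were TATAAA (the TATA box), CCAAT (bound by NF-Y), GGGCGG (the GC box), CCGGAAG (bound by ETS factors), CACGTG (the E-box), TGACGTCA (the cyclic AMP response element), TGANTCA (bound by AP-1), TTCNNNGAA (bound by STAT factors), GCGCATGCG (bound by NRF-1) and GAAANNGAA (the core of interferon response elements). Overlapping matches were allowed, and a match on the minus strand appears above as its reverse complement. TNFSF10 had TATAAA 31 bases before its start and GAAANNGAA starting 54 and 186 bases before it. GPC6 had TATAAA 155 bases and GAAANNGAA 118 bases before its start, while KCNMA1 had 6 matches to GGGCGG, of which the last 2 overlap, and EPAS1 had 7 matches to GGGCGG and 1 to CCAAT. Over the 27 promoters, GAAANNGAA occurred in 5 (18.5%: GPC6, TNFSF10, SIDT1, CLTC and FEZ1). This compares with 4.97% of 6698 other genes at or above the siControl minimum and 7.06% of all 27305 available promoters. TATAAA occurred in 4 (14.8%: GPC6, TNFSF10, NAALADL2 and SRGAP3), against 4.87% and 11.1%. GGGCGG occurred in 14 (51.9%, against 69.9% and 42.3%) and CCGGAAG in 1 (3.70%, against 16.8% and 8.82%). CCAAT was found in 9 (33.3%, against 35.8% and 33.0%) and CACGTG in 4 (14.8%, against 9.35% and 6.49%). TTCNNNGAA was found in 2 (7.41%, against 5.40% and 6.78%) and TGANTCA in 1 (3.70%, against 3.31% and 6.60%). TGACGTCA was found in 0 of the 27, against 3.11% and 1.77%, and so was GCGCATGCG, against 3.30% and 1.78%. A match is a string of letters and not a site, and these shares rest on small counts. Median GC content was 63.6% in the 27 promoters and 65.6% in those of the 6698 other genes.

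All 33 genes had their 3 siNELF-A arrays below all 3 siControl arrays, and so did 22.5% of all 22011 clusters. In 22 of the 33, the siNELF-A arrays were also below all 12 arrays of the other groups (0.94% of clusters). The siNELF-C arrays were all above the controls in 10 genes (15.1% of clusters) and all below in 6 (31.3%). The siNELF-E arrays were all above in 14 (13.5%) and all below in 4 (21.1%). The siNELF-B arrays were all above in 0 (5.57%) and all below in 0 (16.6%). The choice of the genes used each of these comparisons, so nothing is read from these counts beside their shares.

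**Figure D3:**
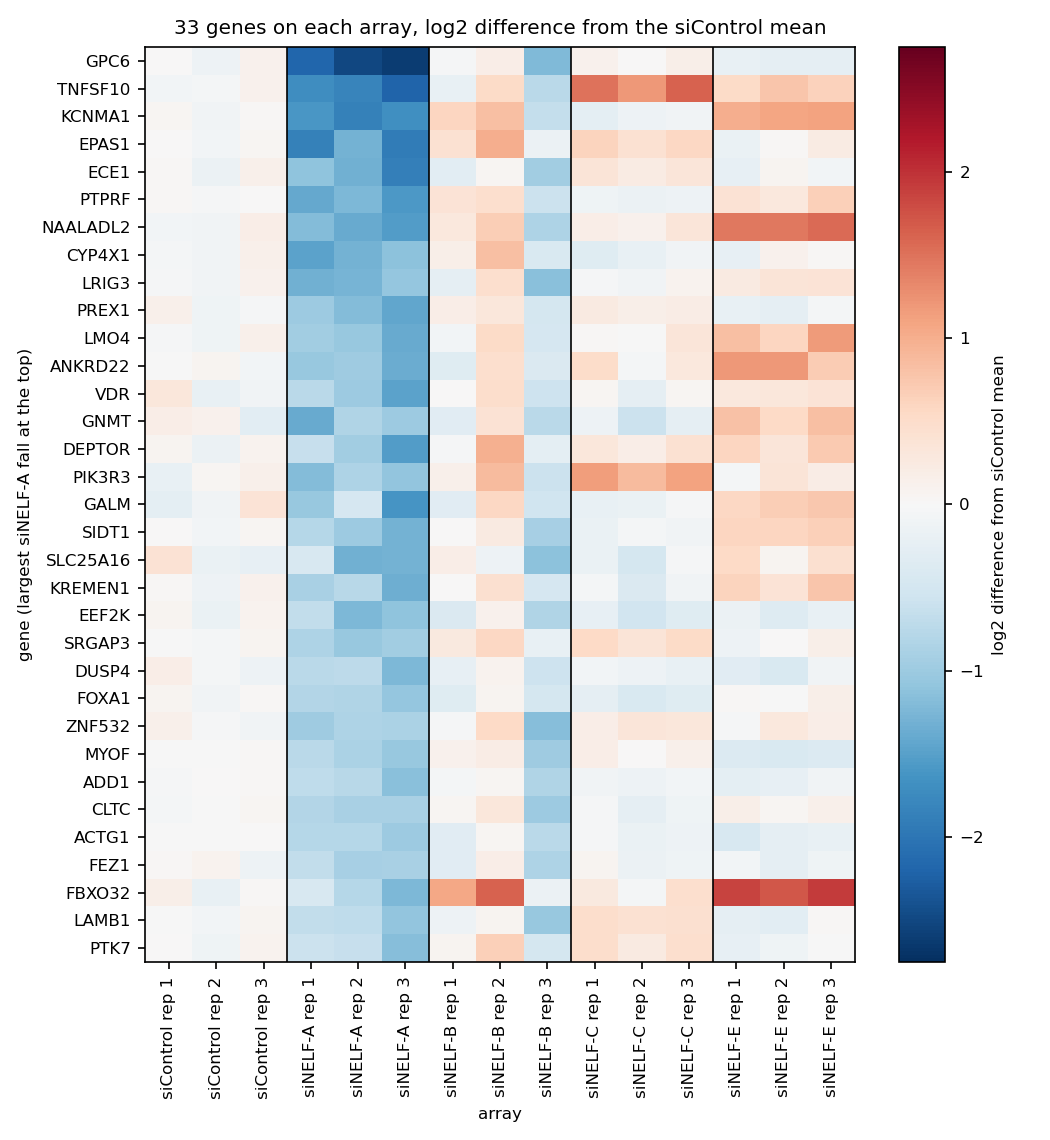
Log2 difference of each of the 33 genes (rows, largest siNELF-A fall at the top) from its siControl mean on each of the 15 arrays (columns); blue is lower and red higher. The siNELF-A columns are blue throughout, and siNELF-B replicate 3 is blue in all 33 rows too and below the siNELF-A mean in 6 of them; FBXO32, NAALADL2, KCNMA1 and ANKRD22 are red in siNELF-E.

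Among proteins at the cell surface, GPC6, a glypican that carries heparan sulphate chains on a lipid anchor, had the largest fall. It read 7.50, 7.34 and 7.60 on the siControl arrays, 5.31, 4.97 and 4.86 on siNELF-A, 7.44, 7.66 and 6.26 on siNELF-B, 7.61, 7.50 and 7.64 on siNELF-C and 7.27, 7.22 and 7.23 on siNELF-E. The siNELF-A arrays were far below every other array, the siNELF-E arrays were slightly below the controls and siNELF-B replicate 3 further below. The siNELF-A mean fell by 2.43 on the log2 scale, or 5.40-fold (SD 0.13 in siControl and 0.23 in siNELF-A, n = 3 each). Its relative GPC4 differed by -0.42 in siNELF-A, which did not pass the test, and GPC3 was near the floor of the array.

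TNFSF10 encodes TRAIL, a death ligand that signals through the receptors of TNFRSF10A and TNFRSF10B. It read 6.68, 6.69 and 6.88 on the siControl arrays, 5.05, 4.92 and 4.54 on siNELF-A, 6.55, 7.27 and 6.0 on siNELF-B, 8.24, 7.95 and 8.37 on siNELF-C and 7.26, 7.52 and 7.39 on siNELF-E. All siNELF-A arrays were below every other array, and all siNELF-C and siNELF-E arrays were above the controls. The siNELF-A mean fell by 1.91 on the log2 scale, or 3.76-fold (SD 0.11 in siControl and 0.26 in siNELF-A). In the opposite direction the siNELF-C mean lay 1.44 above control and the siNELF-E mean 0.64 above. The choice of genes did not compare siNELF-C with siNELF-B, though it bounded both means from below against siControl. The difference of siNELF-C from siNELF-B was 1.58 ± 0.26 (SE) with an adjusted p of 0.00695 (limma). This call was kept in all 22 settings tried. The receptor genes TNFRSF10A and TNFRSF10B differed by -0.51 and -0.08 in siNELF-A, and the decoy receptor gene TNFRSF10C by -1.43 (adjusted p = 0.0509, limma), none of which passed the test.

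KCNMA1, the pore-forming subunit of the large-conductance calcium-activated potassium channel, read 5.57, 5.41 and 5.55 on the siControl arrays, 3.90, 3.65 and 3.83 on siNELF-A, 6.09, 6.33 and 4.85 on siNELF-B, 5.25, 5.38 and 5.42 on siNELF-C and 6.52, 6.60 and 6.62 on siNELF-E. It was lowest on the siNELF-A arrays and above all controls on every siNELF-E array. The fall was 1.71 on the log2 scale, or 3.28-fold (SD 0.09 in siControl and 0.13 in siNELF-A), and the siNELF-E mean lay 1.07 above control. KCNMA1 was higher in siNELF-E than in siNELF-C by 1.23 ± 0.28 (SE, adjusted p = 0.0231, limma). That call was lost when any single siNELF-C or siNELF-E array was left out, with adjusted p-values up to 0.0902. The channel's auxiliary subunit gene KCNMB4 was lower in siNELF-A by 0.69 (SE 0.12, adjusted p = 0.00706, limma). It was not called after quantile normalization (-0.46) or after centring on medians (-0.57) or 75th percentiles (-0.47). KCNMB4 also differed by -0.53 in siNELF-B and -0.50 in siNELF-C (adjusted p = 0.0335 and 0.0263, limma), short of the 1.5-fold limit, and by 0.07 in siNELF-E.

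NAALADL2, named for its likeness to a glutamate-releasing dipeptidase, read 5.72, 5.69 and 5.97 on the siControl arrays, 4.60, 4.40 and 4.25 on siNELF-A, 6.08, 6.47 and 4.94 on siNELF-B, 5.98, 5.90 and 6.13 on siNELF-C and 7.24, 7.24 and 7.34 on siNELF-E. Its siNELF-A arrays were the lowest and its siNELF-E arrays the highest of all 15. The fall was 1.38 on the log2 scale, or 2.60-fold (SD 0.16 in siControl and 0.18 in siNELF-A). NAALADL2 was higher in siNELF-E than in siNELF-B by 1.45 ± 0.29 (SE, adjusted p = 0.0115, limma) and higher than in siNELF-C by 1.27 ± 0.29 (adjusted p = 0.0221). The call against siNELF-B was lost only without siNELF-E replicate 3 (adjusted p = 0.0501), and the call against siNELF-C without any 1 of the siNELF-C or siNELF-E arrays (up to 0.0922). TNFSF10 and NAALADL2 lie on chromosome 3 with 4 protein-coding genes between them in RefSeq GRCh38. Of all pairs of members on a shared chromosome this was the closest, followed by GNMT and PTK7 with 8 between. How often other genes lie this near was not tested.

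ECE1, the protease that makes active endothelin from its precursor, read 6.94, 6.75 and 7.05 on the siControl arrays, 5.80, 5.60 and 5.02 on siNELF-A, 6.62, 6.97 and 5.96 on siNELF-B, 7.27, 7.15 and 7.24 on siNELF-C and 6.69, 6.98 and 6.85 on siNELF-E. The siNELF-A arrays were lowest, siNELF-B replicate 3 was next, and the siNELF-C arrays were above the controls. The siNELF-A mean fell by 1.44 on the log2 scale, or 2.71-fold (SD 0.15 in siControl and 0.40 in siNELF-A). EDN1, the precursor gene, differed by 0.34 in siNELF-A and was not called. PTPRF, the receptor tyrosine phosphatase LAR, read 6.78, 6.71 and 6.76 on the siControl arrays, 5.33, 5.52 and 5.18 on siNELF-A, 7.14, 7.21 and 6.16 on siNELF-B, 6.64, 6.59 and 6.61 on siNELF-C and 7.15, 7.04 and 7.40 on siNELF-E. The siNELF-A arrays were below all others, and the siNELF-E arrays were above all controls. PTPRF fell by 1.41 on the log2 scale, or 2.65-fold (SD 0.04 in siControl and 0.17 in siNELF-A), while its relative PTPRS differed by -0.45 and was not called.

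LRIG3, a transmembrane protein with leucine-rich repeats, read 6.55, 6.51 and 6.72 on the siControl arrays, 5.28, 5.32 and 5.52 on siNELF-A, 6.34, 7.06 and 5.44 on siNELF-B, 6.56, 6.50 and 6.68 on siNELF-C and 6.84, 6.95 and 6.98 on siNELF-E. Here siNELF-B replicate 3 reached the siNELF-A range, and siNELF-B replicate 2 was above all controls. LRIG3 fell by 1.22 on the log2 scale, or 2.33-fold (SD 0.11 in siControl and 0.13 in siNELF-A). Its relative LRIG1, which is not among the 33 genes, was lower in siNELF-A by 1.00 (SE 0.23, adjusted p = 0.0293, limma) and lower in siNELF-B by 0.90 (adjusted p = 0.0458). The LRIG1 call in siNELF-A was lost without any 1 control array, siNELF-A replicate 2 or siNELF-A replicate 3, with adjusted p-values up to 0.14.

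The remaining surface and matrix genes fell less. KREMEN1, a Dickkopf receptor of the WNT pathway, went from 5.90 ± 0.12 to 4.90 ± 0.30 (mean ± SD, n = 3), and PTK7, a catalytically inactive receptor kinase of WNT and planar polarity signalling, went from 6.37 ± 0.10 to 5.56 ± 0.32. The laminin chain gene LAMB1 read 7.17, 7.10 and 7.26 on the siControl arrays, 6.51, 6.49 and 6.09 on siNELF-A, 7.04, 7.24 and 6.14 on siNELF-B, 7.67, 7.59 and 7.62 on siNELF-C and 6.93, 6.88 and 7.21 on siNELF-E. Its siNELF-C arrays were the highest and its siNELF-A arrays and siNELF-B replicate 3 the lowest. LAMB1 fell by 0.82 on the log2 scale, or 1.76-fold in siNELF-A (SD 0.08 in siControl and 0.23 in siNELF-A). The partner chain gene LAMC1 differed by -0.75 in siNELF-A with an adjusted p of 0.211 (limma), and LAMB2 by 0.10.

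Transcription regulators made up the next group, led by EPAS1, an oxygen-regulated alpha subunit of the hypoxia-inducible factors. EPAS1 read 6.83, 6.73 and 6.87 on the siControl arrays, 4.95, 5.52 and 4.89 on siNELF-A, 7.22, 7.80 and 6.64 on siNELF-B, 7.43, 7.23 and 7.38 on siNELF-C and 6.63, 6.83 and 7.03 on siNELF-E. The siNELF-A arrays were well below all others, and the siNELF-C arrays were above all controls. The siNELF-A mean fell by 1.69 on the log2 scale, or 3.22-fold (SD 0.07 in siControl and 0.35 in siNELF-A). The paralog HIF1A differed by -0.30 and the dimer partner ARNT by -0.73 (adjusted p = 0.182, limma), and neither was called.

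VDR, the nuclear receptor for the active form of vitamin D, read 7.45, 6.94 and 7.05 on the siControl arrays, 6.41, 6.16 and 5.67 on siNELF-A, 7.16, 7.62 and 6.57 on siNELF-B, 7.20, 6.90 and 7.20 on siNELF-C and 7.43, 7.46 and 7.53 on siNELF-E. Its siNELF-A arrays were below all other arrays, although siNELF-B replicate 3 came within a short distance of them. VDR fell by 1.07 on the log2 scale, or 2.10-fold (SD 0.27 in siControl and 0.38 in siNELF-A). Its partner RXRA differed by -0.49 and was not called. LMO4, a LIM-domain cofactor that bridges transcription factors, read 6.90, 6.80 and 7.07 on the siControl arrays, 5.96, 5.87 and 5.53 on siNELF-A, 6.84, 7.45 and 6.45 on siNELF-B, 6.95, 6.90 and 7.25 on siNELF-C and 7.74, 7.52 and 8.09 on siNELF-E. The siNELF-A arrays were lowest and the siNELF-E arrays highest. LMO4 fell by 1.13 on the log2 scale, or 2.19-fold (SD 0.14 in siControl and 0.23 in siNELF-A), and was higher in siNELF-E than in siNELF-B by 0.87 ± 0.23 (SE, adjusted p = 0.0405, limma). That call was kept in 6 of 22 settings, with adjusted p-values up to 0.157.

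FOXA1, a pioneer factor that opens chromatin for the oestrogen receptor in luminal cells, went from 9.03 ± 0.09 to 8.13 ± 0.14 (mean ± SD, n = 3), a fall of 0.90 on the log2 scale, or 1.86-fold. Its siNELF-B, siNELF-C and siNELF-E means differed from control by -0.25, -0.33 and 0.06, and all siNELF-C arrays were below all controls. FOXA1 was the only one of the 33 on the luminal marker list, on which 4 of the 13 other measured genes were called lower in siNELF-A and 0 higher, beside 2.83% lower and 0.495% higher among all clusters. The 4 were ESR1, TFF1, TFF3 and SPDEF. TFF1 was not called under any of the 3 scalings (-1.03 to -1.13), nor TFF3 after quantile normalization (-0.85). TFF1 was also lost without any 1 siControl array or siNELF-A replicate 1 or 2 (adjusted p up to 0.117, limma). The replicate block lost it too (adjusted p = 0.0556, limma). SPDEF was lost after centring on 75th percentiles (-0.59) and without any 1 siControl, siNELF-A, siNELF-C or siNELF-E array (adjusted p up to 0.184, limma). ESR1, the oestrogen receptor gene with which FOXA1 works, was lower by 1.21 in siNELF-A (SE 0.18, adjusted p = 0.00299, limma), with differences of -0.89, -1.37 and -1.07 for the knockdowns of B, C and E. GATA3, another luminal regulator, differed by -0.63 and was not called. ZNF532, a zinc finger gene, went from 5.45 ± 0.13 to 4.55 ± 0.07, and its 3 siNELF-B arrays ran from 4.29 to 5.99, of which the lowest, replicate 3, was below every siNELF-A array.

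Signalling genes included PREX1, an exchange factor that activates the small GTPase RAC1. PREX1 read 7.96, 7.69 and 7.78 on the siControl arrays, 6.82, 6.62 and 6.39 on siNELF-A, 8.0, 8.13 and 7.33 on siNELF-B, 8.06, 7.98 and 8.02 on siNELF-C and 7.61, 7.57 and 7.75 on siNELF-E. The siNELF-A arrays were below all others, and the remaining 12 arrays lay close together apart from siNELF-B replicate 3. PREX1 fell by 1.20 on the log2 scale, or 2.30-fold (SD 0.14 in siControl and 0.21 in siNELF-A). RAC1 differed by -0.47 and was not called.

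DEPTOR, an inhibitory partner of the kinase mTOR, read 7.49, 7.26 and 7.53 on the siControl arrays, 6.79, 6.48 and 5.88 on siNELF-A, 7.38, 8.40 and 7.16 on siNELF-B, 7.74, 7.61 and 7.85 on siNELF-C and 8.02, 7.76 and 8.15 on siNELF-E. All siNELF-A arrays were below all others, and siNELF-B replicate 2 was the highest of the 15. DEPTOR fell by 1.04 on the log2 scale, or 2.06-fold (SD 0.15 in siControl and 0.46 in siNELF-A), and its partner MTOR differed by -0.30 and was not called. PIK3R3, a regulatory subunit of phosphoinositide 3-kinase, read 6.80, 7.05 and 7.15 on the siControl arrays, 5.81, 6.16 and 5.92 on siNELF-A, 7.14, 7.87 and 6.41 on siNELF-B, 8.16, 7.87 and 8.12 on siNELF-C and 6.95, 7.35 and 7.21 on siNELF-E. The siNELF-C arrays were above all controls and the siNELF-A arrays below every other array. PIK3R3 fell by 1.04 on the log2 scale, or 2.05-fold (SD 0.18 in siControl and 0.18 in siNELF-A), and its siNELF-C mean lay 1.05 above control. The related gene PIK3R1 differed by -0.95 in siNELF-A (adjusted p = 0.148, limma) and was not called.

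PIK3R3 was the only one of the 33 on the MAPK and PI3K list, on which 2 of the 24 other measured genes were called lower in siNELF-A and 0 higher (2.83% and 0.495% of all clusters). These were ARAF (-1.02, adjusted p = 0.00527, limma) and AKT1 (-0.74, adjusted p = 0.0162). AKT1 was not called after centring on 75th percentiles (-0.52), or without siControl replicate 1, siControl replicate 3 or siNELF-A replicate 3 (adjusted p up to 0.083). EEF2K, the kinase that restrains translation elongation, went from 5.42 ± 0.16 to 4.42 ± 0.29 (mean ± SD, n = 3). Its siNELF-B, siNELF-C and siNELF-E means were below control too, by 0.37, 0.36 and 0.25, and all siNELF-C arrays were below all controls. DUSP4, a nuclear MAP kinase phosphatase, went from 4.95 ± 0.17 to 4.05 ± 0.28, and its relative DUSP6 differed by -0.69 (adjusted p = 0.0503). SRGAP3, a GTPase-activating protein of SLIT and ROBO signalling, read 5.15, 5.12 and 5.24 on the siControl arrays, 4.33, 4.13 and 4.21 on siNELF-A, 5.45, 5.75 and 4.97 on siNELF-B, 5.72, 5.52 and 5.70 on siNELF-C and 5.04, 5.19 and 5.33 on siNELF-E. Its siNELF-A arrays were below all other arrays and its siNELF-C arrays above all controls. SRGAP3 fell by 0.95 on the log2 scale, or 1.93-fold (SD 0.06 in siControl and 0.10 in siNELF-A).

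Metabolic and transport genes were led by CYP4X1, a cytochrome P450. CYP4X1 read 5.59, 5.55 and 5.79 on the siControl arrays, 4.17, 4.35 and 4.52 on siNELF-A, 5.79, 6.46 and 5.23 on siNELF-B, 5.30, 5.43 and 5.54 on siNELF-C and 5.42, 5.76 and 5.68 on siNELF-E. The siNELF-A arrays were below all others, and siNELF-B replicate 2 was the highest. CYP4X1 fell by 1.30 on the log2 scale, or 2.45-fold (SD 0.13 in siControl and 0.17 in siNELF-A). GNMT, which transfers methyl groups from S-adenosylmethionine to glycine, read 5.43, 5.37 and 4.98 on the siControl arrays, 3.87, 4.43 and 4.27 on siNELF-A, 4.96, 5.66 and 4.51 on siNELF-B, 5.12, 4.66 and 5.0 on siNELF-C and 6.06, 5.81 and 6.09 on siNELF-E. Its siNELF-A arrays were lowest, with siNELF-B replicate 3 close above, and its siNELF-E arrays were highest.

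GNMT fell by 1.07 on the log2 scale, or 2.10-fold (SD 0.25 in siControl and 0.29 in siNELF-A). It was higher in siNELF-E than in siNELF-B by 0.95 ± 0.26 (SE, adjusted p = 0.0439, limma), a call kept in 6 of 22 settings, and higher than in siNELF-C by 1.06 ± 0.26 (adjusted p = 0.0324), kept in 15 of 22. The enzymes next to it in methyl metabolism, AHCY and MAT2A, differed by -0.02 and -0.35 in siNELF-A and were not called. GALM, the enzyme that interconverts the anomers of galactose, went from 6.03 ± 0.33 to 4.99 ± 0.58 (mean ± SD, n = 3), and the galactose enzymes GALK1 and GALT differed by 0.09 and -0.03. SLC25A16, a mitochondrial carrier, went from 6.49 ± 0.35 to 5.47 ± 0.50, with SDs larger than those of most members. SIDT1, a multi-pass membrane protein linked to RNA transport, went from 7.57 ± 0.07 to 6.54 ± 0.27, and its relative SIDT2 differed by 0.30.

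Genes of the cytoskeleton and of membrane traffic fell by less than the leading members. ACTG1, the cytoplasmic gamma actin, fell by 0.85 on the log2 scale, or 1.81-fold (SD 0.01 in siControl and 0.13 in siNELF-A), whereas ACTB, the beta actin, differed by -0.30 and was not called. CLTC, the clathrin heavy chain, went from 9.65 ± 0.05 to 8.78 ± 0.05, and the light chain genes CLTA and CLTB differed by -0.18 and 0.21. MYOF, a ferlin that acts in membrane repair and fusion, went from 9.56 ± 0.03 to 8.67 ± 0.14. ADD1, alpha adducin of the membrane skeleton, went from 8.02 ± 0.04 to 7.15 ± 0.25. FEZ1, an adaptor for kinesin transport, went from 5.01 ± 0.13 to 4.18 ± 0.13. These 5 genes fell by 0.83 to 0.89, and on siNELF-B replicate 3 each was below all controls too. There CLTC read 8.64, below every siNELF-A array, and MYOF at 8.57 and FEZ1 at 4.16 lay below their siNELF-A means.

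ANKRD22, an ankyrin repeat protein, read 8.05, 8.14 and 7.97 on the siControl arrays, 7.02, 7.08 and 6.70 on siNELF-A, 7.71, 8.51 and 7.65 on siNELF-B, 8.56, 7.99 and 8.35 on siNELF-C and 9.24, 9.24 and 8.76 on siNELF-E. The siNELF-A arrays were below every other array and the siNELF-E arrays above every other array. ANKRD22 fell by 1.12 on the log2 scale, or 2.17-fold (SD 0.08 in siControl and 0.20 in siNELF-A). It was higher in siNELF-E than in siNELF-B by 1.12 ± 0.23 (SE, adjusted p = 0.0142, limma), a call that was lost without siNELF-B replicate 1, siNELF-E replicate 1 or siNELF-E replicate 2 (adjusted p up to 0.0669). FBXO32, the muscle atrophy ubiquitin ligase atrogin, read 5.61, 5.24 and 5.48 on the siControl arrays, 5.01, 4.66 and 4.21 on siNELF-A, 6.51, 7.06 and 5.28 on siNELF-B, 5.71, 5.39 and 5.92 on siNELF-C and 7.31, 7.14 and 7.37 on siNELF-E. It was below all controls on the siNELF-A arrays and above all of them on the siNELF-E arrays and on siNELF-B replicates 1 and 2. FBXO32 fell by 0.82 on the log2 scale, or 1.76-fold in siNELF-A (SD 0.19 in siControl and 0.40 in siNELF-A), and its siNELF-E mean lay 1.83 above control. It was higher in siNELF-E than in siNELF-C by 1.60 ± 0.35 (SE, adjusted p = 0.0192, limma), and the call was lost without siNELF-C replicate 1 or 2 or any 1 siNELF-E array (up to 0.0924).

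The tests among the other 3 knockdowns therefore called 7 of the 33 genes. Between siNELF-C and siNELF-B, 1 gene was higher in siNELF-C (TNFSF10) and 0 lower, against 1.6% and 0.536% of all clusters. Between siNELF-E and siNELF-B, 4 were higher in siNELF-E and 0 lower, against 5.74% and 1.16%. Between siNELF-E and siNELF-C, 4 were higher in siNELF-E and 0 lower, against 3.59% and 1.59%. Scaling changed the split: siNELF-E against siNELF-C called 5 higher and 7 lower after quantile normalization, 8 and 3 after centring on medians, and 4 and 9 after centring on 75th percentiles, while siNELF-E against siNELF-B called 3 higher and 1 lower after quantile normalization and 2 and 1 after centring on 75th percentiles. With all arrays on the deposited scale, the counts of genes called higher lie above their background shares but rest on 1 to 4 genes. The background also holds clusters under the siControl minimum. Whether the 33 genes as a set separate the other knockdowns more often than clusters at large was not tested. By median, the 33 genes stood 0.13 higher in siNELF-C than in siNELF-B, 0.33 higher in siNELF-E than in siNELF-B and 0.20 higher in siNELF-E than in siNELF-C, beside 0.12, 0.32 and 0.17 for the 8179 genes at or above the minimum.

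**Figure D4:**
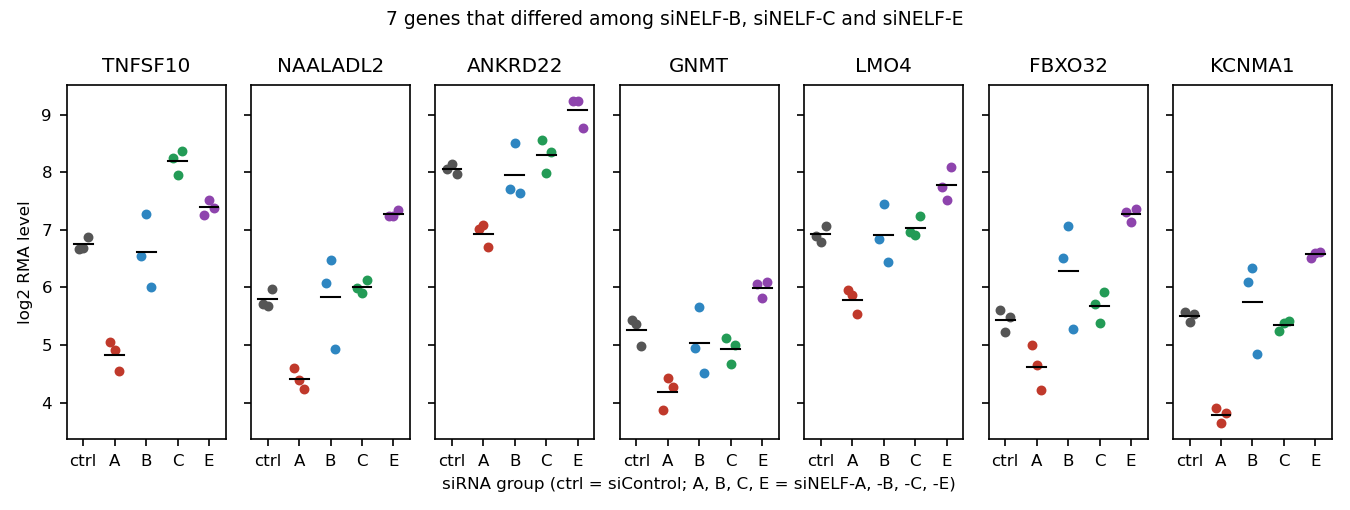
Log2 RMA levels (y axis) on the 3 arrays of each siRNA group (x axis) for the 7 genes called in a test among siNELF-B, siNELF-C and siNELF-E; points are arrays and bars group means. The siNELF-A points are the lowest group in all 7 panels, and the siNELF-E group is the highest in all but TNFSF10, where siNELF-C is.

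Leaving out siNELF-B replicates 2 and 3, which assumes that the lone siNELF-B array varies like the other groups, raised the counts together with the background. In siNELF-C against siNELF-B, 2 genes were higher (6.05% of clusters), TNFSF10 by 1.64 and PIK3R3 by 0.91, and KCNMA1 was the 1 lower gene (2.22%), at -0.74. In siNELF-E against siNELF-B, 6 were higher (13.9%) and 0 lower (3.18%), which added TNFSF10 at 0.84 and SIDT1 at 0.60 to the 4 above. In siNELF-E against siNELF-C, 9 were higher (9.74%) and 3 lower (3.19%). The 5 added to the higher genes were LMO4, ANKRD22, GALM, SIDT1 and KREMEN1, by 0.72 to 0.81, and the 3 lower were PIK3R3 at -0.88, TNFSF10 at -0.80 and LAMB1 at -0.62.

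The exon-level table showed how far the siNELF-A fall ran along each gene. The 33 genes had 748 probe sets, of which 702 had a lower mean in siNELF-A. In 568 (75.9%) all siNELF-A arrays were below all controls, as they were in 18% of all 287329 probe sets. Among the 639 with a siControl mean of at least 4.5 the count was 531 (83.1%), and among the 109 dimmer ones it was 37. These values share their arrays and contrast with the choice of genes, so nothing is read from the shares. In GPC6, ANKRD22 and ACTG1 every probe set was below, 14, 7 and 12 of them, and CLTC with 42 of 43, MYOF with 57 of 59 and PREX1 with 47 of 52 came close. KCNMA1 had the widest range, with 28 of 41 below and differences from -4.22 to 0.56. DUSP4 had 5 of 12 below, FEZ1 6 of 15 and FBXO32 7 of 14.

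Only 5 probe sets, in ADD1, ECE1, EEF2K, PTK7 and PTPRF, had all siNELF-A arrays above all controls. In the tests among the other knockdowns, siNELF-C against siNELF-B called 0 probe sets of these genes higher and 0 lower, against 0.235% and 0.0978% of all probe sets. In siNELF-E against siNELF-B, 6 were higher (0.679%), 4 in NAALADL2 and 2 in SLC25A16, and 0 lower (0.324%). In siNELF-E against siNELF-C, 8 were higher (0.849%), 3 in FBXO32, 2 each in NAALADL2 and SLC25A16 and 1 in KCNMA1, and 2 were lower (0.386%), 1 each in SRGAP3 and MYOF. Genomic positions of the probe sets were not used here.

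**Figure D5:**
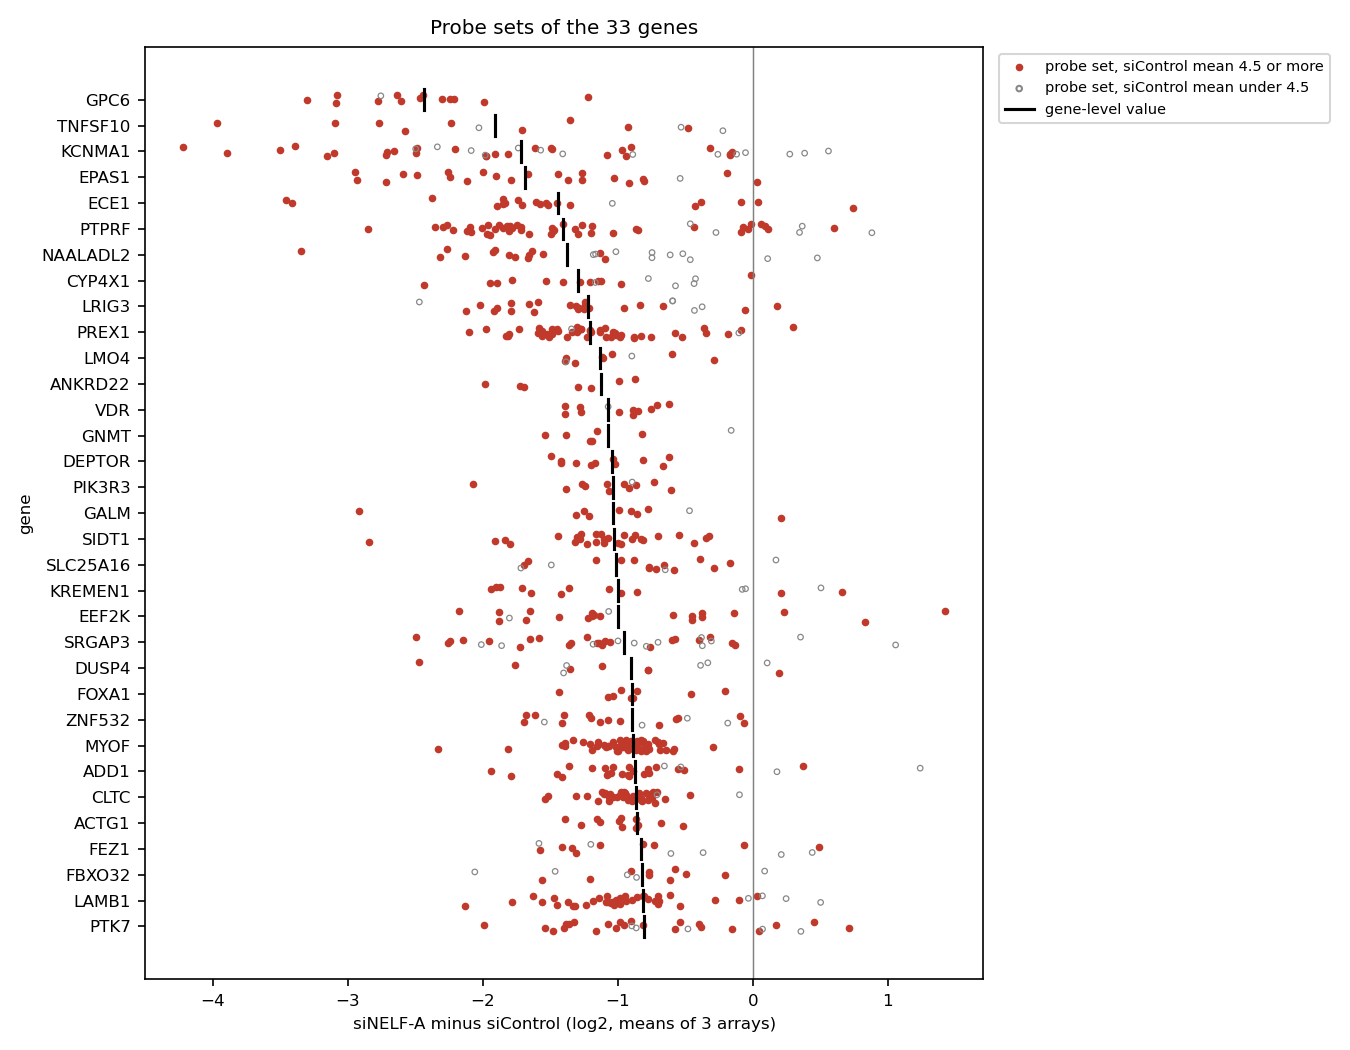
Difference of siNELF-A from siControl (x axis, log2, means of 3 arrays) for each exon-level probe set of the 33 genes (rows); filled points have a siControl mean of at least 4.5, open points a lower one, and bars mark the gene-level value. Most points lie left of 0, with KCNMA1 spread from -4.22 to 0.56 and every probe set of GPC6 at or below -1.22.

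Direct relatives, partners and pathway neighbours of the members, listed for 30 of the 33 genes by function and not by value, mostly did not pass the test. The members were chosen by their means and not by this test, so relatives and members were not judged by the same limit. The test shared 1 spread over all 5 groups, to which the disagreeing siNELF-B arrays contributed. PIK3R1, for example, had SDs of 0.17 in siControl and 0.11 in siNELF-A but an SE of 0.33. A relative that was not called is therefore not shown to be unchanged. Of 73 listed, 61 were measured, and 3 were called lower in siNELF-A (KCNMB4, LRIG1 and ESR1) and 0 higher, beside 2.83% and 0.495% of all clusters. Their median difference was -0.17, against -0.16 over the 8179 genes at or above the minimum. The measured relatives include genes under that minimum, such as PREX2 and GPC3 with siControl means of 1.61 and 1.93. The medians are therefore over unlike sets, and nothing is read from their likeness. Among the 19 gene lists and 5 marker lists, only the MAPK and PI3K list and the luminal list held a member. The interferon-stimulated list, which names 38 genes and none of the 33, had 24 of 32 measured genes lower in siNELF-A. Absence from this list does not show that a member is not induced by interferon. IFIT1 led it with -4.24, beside -5.26, -5.02 and -5.33 for the knockdowns of B, C and E. The oestrogen-induced list had 10 of 25 lower and the mitosis list 4 of 29. Apart from these and the luminal list, each list had 0 to 2 genes lower.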

How the data were processed

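RNA from siRNA-treated T47D cells was measured on 15 Affymetrix exon arrays. The deposited values are on a log2 scale. Per the labels, the authors made them by robust multi-array averaging (RMA) in ArrayAssist over core exons on genome build hg18; the software version is not given in the sources used here. There were 22011 gene-level clusters and 287329 exon-level probe sets, and both sets of values were used as deposited. Arrays give no read depth, and their number limits the precision. Symbols came from the platform annotation and were updated through RefSeq (GRCh38.p14), which renamed 22 clusters and 31110 probe sets. Of the clusters, 2408 carried several symbols and 5171 were not listed.

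Groups came from the labels. limma 3.58.1 (lmFit and eBayes) in R 4.3.3 fitted 1 mean per group to all 15 arrays. The spread of each gene was estimated over all 5 groups together, so the siNELF-B arrays enter the SE of every contrast. Calls needed a 1.5-fold difference or more and a p below 0.05 after Benjamini-Hochberg adjustment across every cluster, or across every probe set for exon-level values. Differences are of log2 means of 3 arrays, and the fit was tested on simulated data. The genes, gene lists and relatives were chosen with earlier results of these data known; the relatives were picked after the member names were seen. All members are named, and values on every array are given for the 15 with the largest siNELF-A fall and for up to 5 with the largest rise in each other knockdown. Promoters are shown for the 4 with the largest fall that had one. Alternatives were other scalings, a filter on dim clusters, array weights, medians of exon-level probe sets, a replicate block and leaving out each array, or siNELF-B replicates 2 and 3. Replicate numbers did not pair the arrays: deviations of same-numbered arrays correlated at -0.30 to 0.20, with 3 of 30 pairs over 0.1.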

Additional observations from a re-analysis of the deposited data

Results flagged for a closer look

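The knockdowns other than siNELF-A differed from each other in 9 tests on 7 of the genes (limma, adjusted over all clusters). None of these tests was a comparison with siControl. TNFSF10 was higher in siNELF-C than in siNELF-B by 1.58. NAALADL2 was higher in siNELF-E than in siNELF-B by 1.45 and higher than in siNELF-C by 1.27. GNMT was likewise higher in siNELF-E, by 0.95 over siNELF-B and 1.06 over siNELF-C. ANKRD22 and LMO4 were higher in siNELF-E than in siNELF-B by 1.12 and 0.87. FBXO32 and KCNMA1 were higher in siNELF-E than in siNELF-C by 1.60 and 1.23. In all 7 genes the siNELF-A arrays were the lowest group, as the choice of genes required relative to siControl.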

How the results depend on the processing

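The number of genes meeting the limits, 33, became 77 after quantile normalization, 57 after centring arrays on medians and 82 after centring on 75th percentiles, and ran from 16 (without siNELF-B replicate 2) to 63 (without siNELF-B replicate 3) over the settings that drop 1 array. Their median siNELF-A difference, -1.04, was -0.82 after quantile normalization, -0.81 after centring on 75th percentiles and -1.27 from medians of exon-level probe sets, and -1.15 to -0.91 without single arrays. The count of calls in siNELF-C against siNELF-B, 1, was 3 under each of the 3 scalings, 3 without siNELF-B replicates 2 and 3, 7 with array weights and 1 to 6 without single arrays. In siNELF-E against siNELF-B, 4 became 8 with array weights and 1 to 13 without single arrays. In siNELF-E against siNELF-C, 4 became 12 after quantile normalization, 11 after centring on medians, 13 after centring on 75th percentiles, 12 without siNELF-B replicates 2 and 3, 12 with array weights and 0 to 11 without single arrays. The siNELF-E against siNELF-C differences use no siNELF-B array and were the same without siNELF-B replicates 2 and 3, such as 1.23 for KCNMA1. For that setting and contrast the change thus lies in the shared spread and not in the differences. The cause of the other changes was not tested, and the array weights did not fully converge. A filter on dim clusters kept these counts within 1.5 times. Of 660 siNELF-A differences of named members under alternatives, 613 stayed within 1 SD, 47 moved by more and 0 changed sign. The moves were 15 of 33 after quantile normalization, 3 after centring on medians, 15 after centring on 75th percentiles and 14 from exon-level medians. Settings that leave out arrays could not add to them. Arrays of the other knockdowns do not enter this difference, and dropping 1 of 3 arrays cannot shift a mean by 1 SD.

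The replicate number as a block gave 1, 2 and 3 calls in the 3 tests among siNELF-B, siNELF-C and siNELF-E, against 1, 4 and 4 without it. In 9 of 30 cases an array's deviations correlated best with those of the same-numbered array of another group, so the numbers were not taken as a pairing. With 3 technical repeats per group, no value here measures the spread between cultures.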
